A study of Homo sapiens with 4 samples.

Results

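The comparison set 2 of the 4 arrays of the study against each other: DACH1-silenced U87TR-Da cells in the medium labelled serum-free against DACH1-silenced U87TR-Da cells in the medium labelled serum. The array of each side was taken by its title, and the difference was read across genes. U87TR-Da is a derivative of U87MG, a human glioblastoma line, in which doxycycline switches on DACH1, a member of the Dachshund family that represses transcription. The serum medium was DMEM with 10% fetal bovine serum. The serum-free one, abbreviated NBE, was Neurobasal with the N-2 and B-27 supplements, basic FGF and EGF. Both arrays, like the other two, also carry a doxycycline treatment of 1 µg/mL for 72 h in their labels, which leaves unsaid how the cells without DACH1 were handled. Nothing in the labels says whether U87TR-Da is 1 clone or several.

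Each array gave a MAS5 signal for 54613 probe sets, an intensity on a linear scale that is scaled to the same mean on each array. Where probe sets of near-identical genes could read each other's transcript, as in the histone, metallothionein and SERPINB3 families, the gene behind a signal is uncertain. A gene was read from its brightest probe set, and signals below 10.9 were raised to it as a floor; this is the 40th percentile of the table. Of 19775 genes, 12906 had at least 1 of the 2 arrays at or above the median of all signals (17.2) and were compared; the other 6869 were not. With 1 array a side, no difference between the pair has a test or a replicate check. Genes were therefore counted by size, at 2-fold, and "at least" marks a fold in which 1 array lay at the floor. Signals are given in the order labelled serum, then labelled serum-free, and a log2 difference is labelled serum-free minus labelled serum.

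Medium changes of this kind act on glioblastoma cells through several routes at once. Serum carries growth factors, lysophospholipids, BMPs and other proteins that drive actin-dependent transcription through SRF and transcription of the ID genes. The neural stem cell medium instead supplies EGF and basic FGF, whose receptors signal through the kinase ERK, with insulin, transferrin, selenium and steroid hormones among the supplements. Glioblastoma cells are also known to make inflammatory cytokines under the control of NF-kB, a family of transcription factors held inactive by inhibitory proteins such as the product of NFKBIA.

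Genes known to follow these routes did not all lie on the side that the labels would lead one to look for. The actin-binding gene CNN1, the ID genes ID1 and ID3 and nearly all genes of cell division had their higher signal on the array labelled serum-free. DUSP6 and SPRY2, feedback inhibitors of the ERK pathway, had theirs on the array labelled serum. Relatives of the first genes also had their higher signal labelled serum: ID4, and ACTG2 and TPM2 of the actin-dependent list. So did the immediate early factors EGR1 and FOS, in a list with 9 of 18 members at least 2-fold lower labelled serum-free and none higher. The media are therefore named by their labels throughout. The medium and any other difference between these 2 cultures cannot be told apart.

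At least 2-fold higher labelled serum-free were 1972 genes, 15.3% of those compared, and at least 2-fold lower were 1580, or 12.2%. The list counts below are to be read beside these shares. The median log2 difference over all compared genes was 0.062, with 6806 genes above 0 and 6084 below. The lower side held the larger differences: 120 genes were at least 8-fold lower and 71 at least 8-fold higher, and 48 against 16 passed 16-fold. Of these 8-fold genes, 38 of the lower and 21 of the higher had a signal of 1000 or more on their brighter array. The share past 2-fold went from 24.3% of 3254 genes with a brighter signal under 50 to 30.7% of 1481 genes at 1000 or more. One array lay at the floor for 541 of the genes past 2-fold, and the other 3011 were measured on both. For 1736 genes past 2-fold a second probe set could be compared: in 1443 all probe sets lay in one direction, and in 117 no other one followed the brightest.

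**Figure D1:**
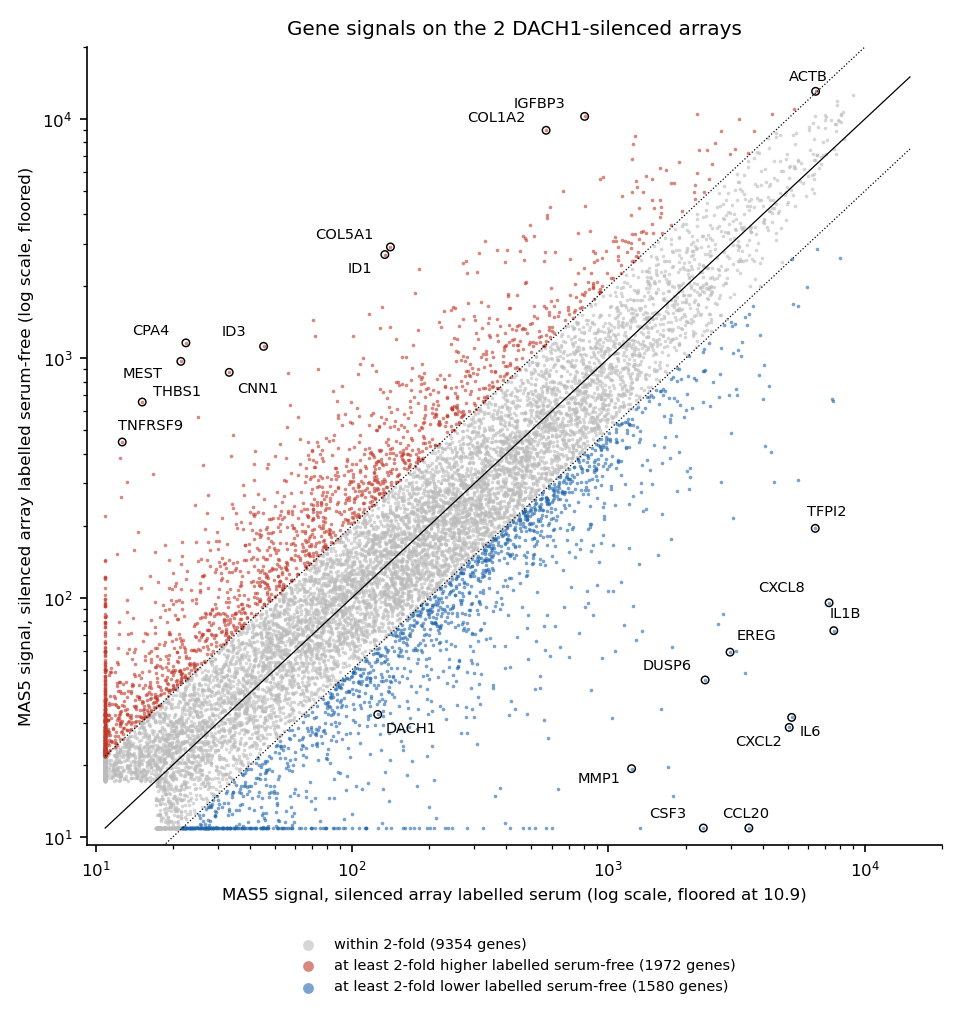
MAS5 signals of 12906 genes on the 2 DACH1-silenced arrays, labelled serum on the x axis and labelled serum-free on the y axis, both on log scales and floored at 10.9. Each point is 1 gene; the solid line marks equal signals and the dotted lines 2-fold. The named cytokine genes lie at the lower right, with signals over 1000 labelled serum and under 100 labelled serum-free, while CPA4, ID1 and COL5A1 lie at the upper left.

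DACH1 itself was read first. Its brightest probe set gave 126 and 32.5, a 3.88-fold lower signal labelled serum-free. The DACH1-induced arrays gave 4431 and 875.1, so in this probe set both silenced arrays lay far under both induced ones. Its other probe sets did not show this. They read 8.3 or less and 23.1 or less on the silenced pair, and 6.7 or less and 24.7 or less on the induced one.

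Chemokines and cytokines formed the lowest end of the comparison. In a bulk extract, a lower signal from fewer expressing cells and one from less RNA per cell cannot be told apart. The 4 chemokine genes printed here lie within 1 cluster on chromosome 4 and carry the same 9-letter kB element, GGAATTTCC, close before their start. It is shown because each of the 4 had a signal at least 21.7-fold lower labelled serum-free. The lines give the 120 bases before the start from RefSeq (GRCh38.p14), with the kB letters in capitals.
CXCL8, chr4:73740449-73740568, plus strand: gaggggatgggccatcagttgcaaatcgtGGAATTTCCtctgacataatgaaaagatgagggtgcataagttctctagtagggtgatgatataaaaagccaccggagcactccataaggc
CXCL1, chr4:73869273-73869392, plus strand: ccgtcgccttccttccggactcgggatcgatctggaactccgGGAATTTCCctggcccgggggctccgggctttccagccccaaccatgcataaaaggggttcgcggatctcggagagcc
CXCL2, chr4:74099196-74099315, minus strand: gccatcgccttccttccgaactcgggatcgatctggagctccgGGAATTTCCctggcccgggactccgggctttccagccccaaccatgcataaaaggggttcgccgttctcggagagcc
CXCL3, chr4:74038690-74038809, minus strand: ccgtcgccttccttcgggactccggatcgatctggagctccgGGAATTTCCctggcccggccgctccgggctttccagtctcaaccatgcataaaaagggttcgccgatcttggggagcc

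The element begins 91 bases before the start in CXCL8, 78 in CXCL1 and CXCL3, and 77 in CXCL2. Read on both strands of a window from 250 bases before to 50 after the start, GGAATTTCC was held by 7 of 13 chemokine promoters in the table. Over all 27305 genes with a promoter it was held by 0.472%. The letters searched are those that the printed chemokine promoters share, and the stretches of CXCL1, CXCL2 and CXCL3 are near-identical. These shares therefore describe the promoters and were not tested against each other. GGAATTTCC was also held by 5 of 16 promoters of the NF-kB list, those of NFKB1, REL, NFKBIA, NFKBIZ and ICAM1, which were named for the match. REL, NFKBIA and NFKBIZ had log2 differences of -1.70, -2.28 and -4.14. NFKB1 (-0.40) and ICAM1 (-0.12) lay within 2-fold, so not all holders were lower by that much. Among the chemokine holders, CXCL6 and CXCL10 were not compared. None of 15 promoters of the interleukin 1 family and none of 11 of the gp130 cytokines held these exact letters in this window. A match describes letters and not binding.

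CXCL8, the neutrophil attractant interleukin 8, read 7257 and 95.2, a 76.2-fold lower signal. CXCL2, a ligand of the same receptor, had the lowest measured difference of all genes: 5072 and 28.7, or 177-fold. Its neighbour CXCL3 read 1710 and 19.7, which was 86.8-fold lower. CXCL2 and CXCL3 thus came close to the floor labelled serum-free, while CXCL8 stayed above it. CXCL1 read 236.8 and below the floor, at least 21.7-fold lower, and CXCL5 from 323.9, at least 29.7-fold. CCL20, which attracts cells bearing the receptor CCR6, gave the largest bound of all: 3530 labelled serum and below the floor labelled serum-free, at least 324-fold lower.

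Of 11 chemokine genes and receptors compared, 8 were lower by 2-fold or more and 2 were higher; their median log2 difference was -4.44. That median ranged from -6.25 with no floor to -2.70 with a floor of 50 and an array at 100, and was 0 with no filter, which adds genes at the floor on both arrays. The exceptions were CCL26, which attracts eosinophils and read 49.1 and 215.7 (4.39-fold higher), and the scavenging receptor ACKR3, at 141.5 and 598.1 (4.23-fold higher). CXCL12 read 15.2 and 22.2, near the floor on both arrays.

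In the interleukin 1 family, IL1B, the main agonist, read 7569 and 72.8, a 104-fold lower signal. IL1RN, whose product blocks the interleukin 1 receptor, was lower as well, at 3407 and 48.5 (70.2-fold). The agonist and its antagonist therefore lay on the same side. IL33, an alarmin stored in the nucleus, read 570.6 and was below the floor labelled serum-free, at least 52.3-fold lower. IRAK2, a kinase adaptor downstream of the receptor, read 765.3 and 71.2 (10.7-fold lower), and CASP1, the protease that matures interleukin 1 beta, 299.7 and 31.8 (9.42-fold). IL1A read 1031 and 31.5 in its brightest probe set, and its log2 difference was -1.96 with the mean of all probe sets. Without probe sets that may match several transcripts it was 1.12, in the opposite direction, so the direction of IL1A depends on the probe set. The accessory receptor chain IL1RAP was the 1 member higher, at 49.5 and 118.9 (2.40-fold). In all, 8 of 16 members were lower, IL1A counted among them, with a median of -1.06. The median was -0.59 without the probe sets that may match several transcripts and -2.58 with a floor of 50 and an array at 100.

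IL6 read 5184 and 31.6, which was 164-fold lower. CSF3, the granulocyte colony-stimulating factor gene, went from 2345 to below the floor, at least 215-fold. IL24, a cytokine of the interleukin 10 family, gave 1779 and 14.8 (120-fold), and LIF, a ligand of gp130, 1065 and 59.8 (17.8-fold). SOCS3, a feedback inhibitor of STAT3 signalling, lay at 418.6 and 37.0 (11.3-fold lower), and the receptor gene LIFR at 277.3 and 72.8 (3.81-fold). STAT3 itself read 230.3 and 380.7, and the decoy receptor IL13RA2 5244 and 1690. IL7R, the interleukin 7 receptor chain, lay the other way, at 67.4 and 218.8 (3.25-fold higher). Of 15 members of this list 8 were lower and 1 higher, with a median of -1.0. That median ranged from -0.69 with no filter to -1.78 with a floor of 50 and an array at 100.

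The NF-kB system itself followed, with 12 of 17 members at least 2-fold lower and none higher, and a median of -1.70. NFKBIZ, an inducible nuclear regulator needed for IL6 transcription, read 5487 and 311.5 (17.6-fold lower). The inhibitor NFKBIA lay at 1344 and 276.6 (4.86-fold) and TNFAIP3, the A20 feedback protein, at 920.8 and 141 (6.53-fold). RELB, a subunit of the non-canonical pathway, lay at 166.9 and 28.7 (5.82-fold), whereas RELA, the canonical subunit, read 439.4 and 514.3. TNFAIP6, a hyaluronan-binding protein induced by cytokines, gave 1610 and 34.4 (46.8-fold), and SOD2, the mitochondrial superoxide dismutase, 665.7 and 130.4 (5.11-fold).

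Prostaglandin synthesis showed the same side in its inducible steps. PTGS2, the inducible cyclooxygenase, read 3155 and 59.8 (52.8-fold lower), and its other probe set had a log2 difference of -5.94. PTGES, the terminal synthase of prostaglandin E2, gave 1850 and 278.5 (6.64-fold), and PLA2G4A, which frees arachidonic acid, 131.4 and 11.4 (11.5-fold). The receptor PTGER4 lay at 251.6 and 102.3 (2.46-fold lower). These 4 were the lower members among 10 compared. PTGDS was the 1 higher, at 12.6 and 29.9.

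Among 19 interferon-stimulated genes 3 were higher and 4 lower, beside 15.3% and 12.2% of all genes, and nothing particular to them is read from so small a count. IFI44L read 413.2 and 51.4 (8.04-fold lower) and the transcription factor IRF1 334 and 130.3 (2.56-fold), while OAS3 read 17.0 and 75.3 (4.43-fold higher). IFIT1 was below the floor labelled serum and at 56.8 labelled serum-free, at least 5.21-fold higher. Of 15 genes of MHC class I and antigen processing 3 were lower, the immunoproteasome subunits PSMB8 (274.3 and 131.8) and PSMB9 (213.7 and 85.4) and the peptide transporter TAP2 (155 and 68.0), and none was higher. Nothing particular is read from this small count either.

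The second group on the lower side was the ERK feedback list, with 13 of 19 members at least 2-fold lower, none higher and a median of -1.34. Its lower members include the ligand genes EREG, LIF and HBEGF, which are also counted in the EGF and gp130 lists. DUSP6, the phosphatase that inactivates ERK, read 2383 and 45.3 (52.6-fold lower). SPRY2, a Sprouty inhibitor of receptor signalling, lay at 1313 and 137.9 (9.52-fold), and ETV4, a transcription factor induced by ERK, at 71.9 and 14.6 (4.92-fold). CCND1, the D cyclin that ERK signalling induces, lay at 1719 and 685.2 (2.51-fold), and PHLDA1 at 3887 and 1249 (3.11-fold).

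The immediate early factors lay on the same side, 9 of 18 lower and none higher. EGR1 read 1284 and 66.4 (19.3-fold lower), and ATF3 558.3 and 75.9 (7.36-fold). FOS was below the floor labelled serum-free, at least 7.76-fold lower from 84.6. The orphan receptors NR4A2 and NR4A3, also at the floor there, were at least 16.8-fold and 10.4-fold lower. FOSL2, a FOS relative, read 480.7 and 812.7.

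Among EGF family ligands, 2 of the EGF receptor and 1 of related receptors were lower. EREG, which encodes epiregulin, gave 2981 and 59.2 (50.4-fold lower), HBEGF 485.7 and 84.5 (5.75-fold) and NRG1, a ligand of the related ERBB receptors, 714.2 and 110.6 (6.46-fold). The receptor gene EGFR itself read 481.1 and 1281, 2.66-fold higher, although the mean of all its probe sets differed by 0.69 on the log2 scale. LRIG1, which removes the receptor from the membrane, read 1251 and 526.7 (2.37-fold lower). The list of 11 held 2 higher and 4 lower. TGFA, another ligand of the receptor, read 109.5 and 185.7. EGF, which the serum-free medium contains, was below the floor labelled serum and at 64.6 labelled serum-free, at least 5.93-fold higher.

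FGF2, the gene of the basic FGF that the same medium contains, read 1476 and 299.6, a 4.93-fold lower signal. FGF7, a ligand of epithelial FGF receptors, went from 280.4 to below the floor, at least 25.7-fold lower. FGF1 lay the other way at 12.1 and 54.0 (4.46-fold higher), as did SDC1, a heparan sulfate coreceptor, at 119.7 and 938.3 (7.84-fold). FGFR1, an FGF receptor gene, read 289.4 and 443. The list of 13 FGF genes held 4 on each side.

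Among the genes for the other proteins of the supplements, INS was below the floor on both arrays and TF, the transferrin gene, read 1.3 and 19.6, at least 1.80-fold higher. Their receptors INSR (74.3 and 53.3) and TFRC (4066 and 6213) lay within 2-fold. FOXO1, which insulin signalling keeps out of the nucleus, read 59.2 and 11.5 (5.15-fold lower), and BCL6 859 and 157.3 (5.46-fold), in a list of 17 insulin and FOXO genes with 1 higher and 4 lower. The 12 glucocorticoid targets held 2 higher and 3 lower, with KLF9 at 170.5 and 42.9 (3.97-fold lower) and TSC22D3 at 246.5 and 503 (2.04-fold higher). The retinoid list of 12 held 3 higher and 4 lower. RARB, a receptor that retinoic acid induces, read 38.5 and 143 (3.71-fold higher), and ALDH1A3, a retinoic acid synthesising enzyme, 4067 and 429.9 (9.46-fold lower). Of 16 selenoprotein genes 13 lay within 2-fold. Beside 15.3% higher and 12.2% lower over all genes, nothing particular is read from the small counts of these lists.

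Proteases and their inhibitors held some of the brightest genes of the lower side. The collagenase MMP1 read 1231 and 19.3 (63.8-fold lower), MMP12 74.8 and 11.7 (6.39-fold) and the inhibitor TIMP1 8026 and 2625 (3.06-fold). TFPI2, an inhibitor of serine proteases deposited in the matrix, lay at 6406 and 194.8 (32.9-fold lower), and ADAMTS5, an aggrecanase, at 2681 and 77.6 (34.5-fold). PAPPA, which cleaves IGF binding proteins, lay at 4440 and 305.7 (14.5-fold lower). Other members lay on the opposite side. The gelatinase MMP2 read 3124 and 7469 (2.39-fold higher), TIMP3 41.9 and 409 (9.76-fold), and the membrane-anchored inhibitor RECK 76.6 and 315.1 (4.11-fold). Of 17 metalloproteinase and TIMP genes 4 were higher and 6 lower.

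On the higher side, the enzymes that fold and crosslink collagen lay together. Of 16 compared, 15 were at least 2-fold higher and none lower, with a median of 1.99. Lysyl oxidase, LOX, read 1266 and 8467 (6.69-fold higher), its relatives LOXL1 576.3 and 3955 (6.86-fold) and LOXL3 130.4 and 1633 (12.5-fold). SERPINH1, the collagen chaperone HSP47, lay at 577.8 and 3858 (6.68-fold), and BMP1, the procollagen C-proteinase, at 35.2 and 225.8 (6.41-fold).

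Several collagen chains were higher with them. COL1A1 read 1244 and 7867 (6.33-fold higher), COL1A2 571.4 and 8975 (15.7-fold), COL5A1 141.2 and 2921 (20.7-fold) and COL5A2 277.6 and 2550 (9.18-fold). COL8A1, a short-chain collagen, lay at 71.7 and 1242 (17.3-fold higher). The fibrillar types I and V were thus higher in both chains named. Basement membrane collagens lay on both sides. COL4A2 was below the floor labelled serum and at 50.5 labelled serum-free, at least 4.63-fold higher, whereas COL4A6 lay at 51.8 and 22.5 (2.30-fold lower) and COL15A1 at 34.7 and below the floor, at least 3.18-fold lower. In all 8 of 18 chains were higher and 2 lower, with a median of 0.69 (1.35 without probe sets ending in _x_at or _s_at).

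Among glycoproteins of the matrix, THBS1, the thrombospondin that activates latent TGF-beta, had a 43.2-fold higher signal (15.2 and 656.9), with smaller differences in its dimmer probe sets. SPARC, a collagen-binding protein, read 663.5 and 5009 (7.55-fold higher), the fibrillin FBN1 813.4 and 4340 (5.34-fold), and fibronectin, FN1, 2416 and 7440 (3.08-fold). The proteoglycan decorin, DCN, lay far on the other side, at 1349 and 72.5 (18.6-fold lower). With it were the hyaluronan synthases HAS2 (868.7 and 85, 10.2-fold lower) and HAS3 (178.9 and 16.3, 11.0-fold). The 20 genes held 9 higher and 6 lower, so the list did not lie on one side.

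The fibronectin receptor chain ITGA5 followed its ligand, at 514.6 and 3259 (6.33-fold higher), and ITGA2, a chain of a collagen receptor, did not, at 261.1 and 55.1 (4.74-fold lower). LAMC1, a laminin chain, lay at 1157 and 3082 (2.66-fold higher). Of 20 integrin and laminin genes 6 were higher and 4 lower. LAMA4 read 186.2 and 93.0, but the mean of its probe sets was 0.078 higher on the log2 scale, so its direction is not settled; it is 1 of the 4 counted lower.

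Actin-dependent genes were mostly higher: 13 of 20 SRF targets were at least 2-fold higher and 2 lower, with a median of 1.19. Without probe sets ending in _x_at or _s_at the median was 0.63. CNN1, the calponin of smooth muscle, read 33.2 and 874 (26.3-fold higher). ACTA2, smooth muscle actin, lay at 477.1 and 3113 (6.52-fold), and TGFB1I1, a focal adhesion protein, at 190.6 and 870.5 (4.57-fold). TAGLN read 27.4 and 268.9 (9.81-fold); its 2 brighter probe sets gave log2 differences of 3.29 and 3.65, and a dim one gave -0.28. MYL9, a myosin light chain, read 306.9 and 2292, but a log2 difference of -0.73 without probe sets that may match several transcripts; it is among the 13. ACTB read 6428 and 13055 (2.03-fold higher) and came to a log2 difference of 0.55 with quantile normalization. TPM2 lay at 343.9 and 167.1 (2.06-fold lower). The other lower member was ACTG2, also a smooth muscle actin, with the lowest log2 difference of the list at -1.30. LMOD1, SYNPO2 and CCN1 lay below 0 but within 2-fold.

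YAP and TEAD targets showed 7 of 12 higher and 2 lower. AJUBA, an adaptor of the Hippo pathway, gave 83.1 and 314.6 (3.79-fold higher) and CCN2, connective tissue growth factor, 146.4 and 365.1 (2.49-fold). NT5E, the ectonucleotidase CD73, lay at 3855 and 852.4 (4.52-fold lower).

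**Figure D2:**
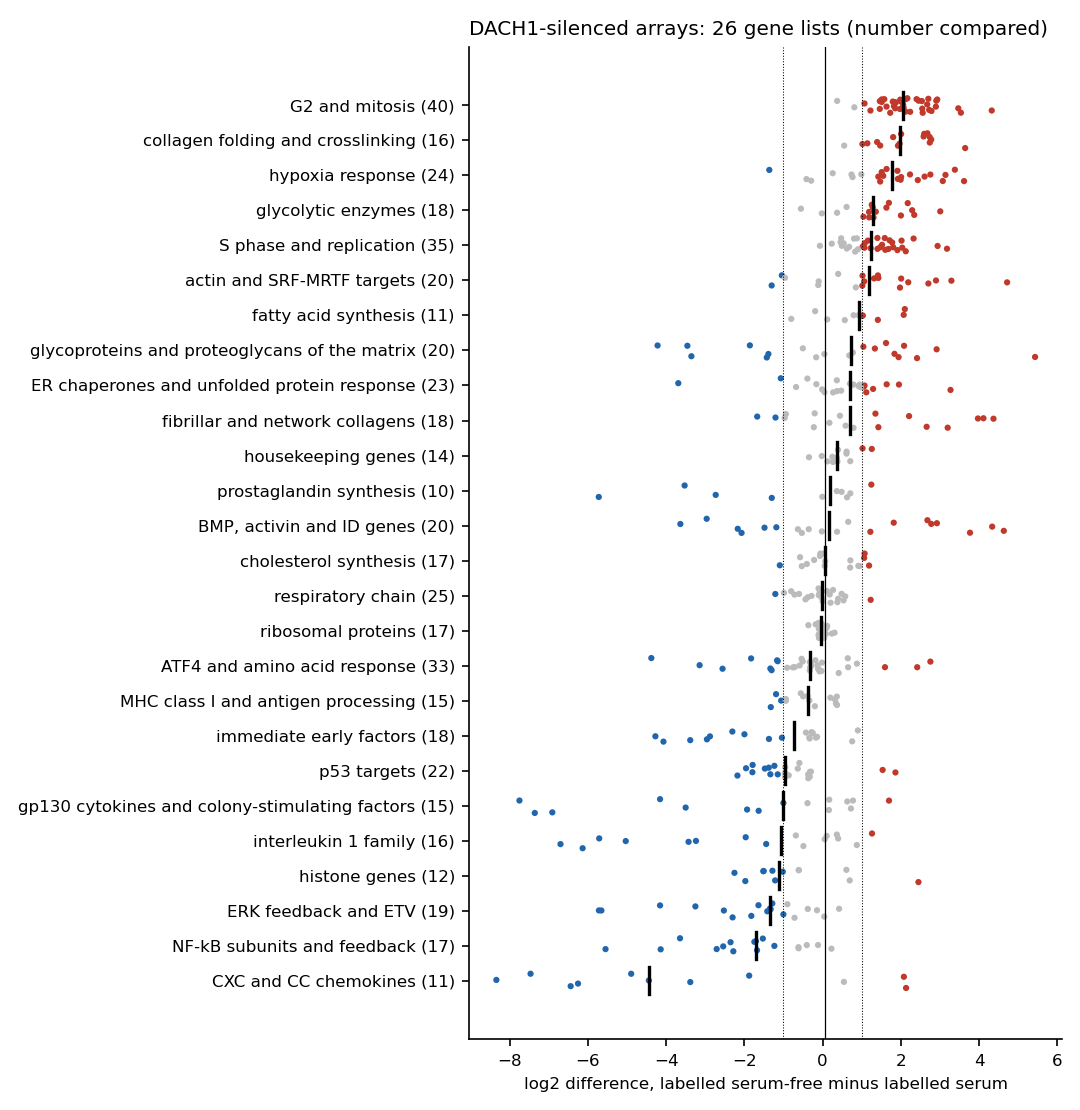
Log2 differences, labelled serum-free minus labelled serum, of the compared members of 26 gene lists on the DACH1-silenced arrays, 1 point per gene with the number compared in brackets; the black bar is the list median, the solid line the median of all genes (0.062) and the dotted lines 2-fold. Red points are at least 2-fold higher and blue ones at least 2-fold lower. Nearly all points of G2 and mitosis lie right of the 2-fold line, those of the ribosomal proteins lie at 0, and chemokines reach furthest to the left.

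The BMP and activin genes did not share a direction. ID1 and ID3, inhibitors of differentiation and direct targets of BMP receptors, read 134.3 and 2714 (20.2-fold higher) and 45.2 and 1122 (24.8-fold). The inhibitory SMAD6 lay at 21.8 and 149.7 (6.87-fold) and SMAD9 at 26.3 and 358.8 (13.6-fold). The ligand genes lay opposite to these targets. BMP2 read 395.2 and 50.7 (7.79-fold lower) and INHBA, the activin A chain, 515.5 and 41.5 (12.4-fold). FST, which binds activin, was at 779.8 and 173.5 (4.49-fold lower), and ID4 at 110.2 and 48.6 (2.27-fold lower). Of 20 genes 8 were higher and 6 lower. NOG, a BMP antagonist, was below the floor labelled serum and at 82.7 labelled serum-free, at least 7.59-fold higher.

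In the TGF-beta list, with 5 of 18 higher and 4 lower, TGFB1 read 283.1 and 881.7 (3.11-fold higher) and the receptor TGFBR2 503.8 and 1404 (2.79-fold). TGFBI, a matrix protein named for its induction by TGF-beta, gave 2207 and 10526 (4.77-fold). The repressors TGIF1 (2023 and 338.6, 5.98-fold lower) and SKIL (742.5 and 147.2, 5.04-fold lower) lay on the other side. Of 18 Wnt genes 6 were higher and 3 lower. RSPO3, a secreted enhancer of the pathway, read 945 and 55.7 (17.0-fold lower), and WNT5A 3311 and 1170 (2.83-fold lower), while WNT5B read 27.3 and 226.9 (8.31-fold higher). The Notch target HES1 was at 46.2 and below the floor, at least 4.24-fold lower, with HEY1 at 117.2 and 48.7 (2.41-fold lower), in a Notch list of 15 with 3 higher and 5 lower.

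The cell cycle lists lay almost wholly on one side. All 40 genes of G2 and mitosis were above 0 and 38 were at least 2-fold higher, with a median log2 difference of 2.07. Of 35 genes of S phase 22 were higher and none lower, with a median of 1.23. The lines show 1 promoter stretch of each kind of element that the mitotic and S phase promoters often hold: the cell cycle homology region, TTTGAA, in PLK1 and CCNB2, and E2F letters in E2F1, whose match on the other strand reads GCGGCAAA. CCNB2 and E2F1 were chosen for these matches. Each is the 120 bases before the start from RefSeq (GRCh38.p14), with the element in capitals.
PLK1, chr16:23678769-23678888, plus strand: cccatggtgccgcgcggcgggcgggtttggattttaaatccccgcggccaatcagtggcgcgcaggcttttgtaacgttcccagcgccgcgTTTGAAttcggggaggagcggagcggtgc
CCNB2, chr15:59105026-59105145, plus strand: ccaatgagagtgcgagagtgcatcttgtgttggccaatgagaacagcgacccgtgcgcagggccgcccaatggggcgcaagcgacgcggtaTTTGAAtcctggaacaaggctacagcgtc
E2F1, chr20:33686386-33686505, minus strand: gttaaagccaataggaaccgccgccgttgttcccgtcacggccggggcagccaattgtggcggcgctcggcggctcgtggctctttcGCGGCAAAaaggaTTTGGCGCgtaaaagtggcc

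TTTGAA lies 29 bases before the start in both PLK1 and CCNB2. On both strands of the same 300-base window, it was held by 23 of 34 mitotic promoters, by 1 of 30 S phase promoters and by 15.4% of all promoters. The E2F letters searched were TTTGGCGC, TTTCCCGC and TTTGCCGC. They were held by 17 of 30 S phase promoters, by 2 of 34 mitotic ones and by 2.85% of all.

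MYBL2, a transcription factor of the complex that binds the homology region, gave the largest bound on the higher side: below the floor labelled serum and 218.5 labelled serum-free, at least 20.0-fold. FOXM1, which acts with that complex, read 33.8 and 392.4 (11.6-fold higher). Among mitotic genes the kinesin KIF20A lay at 57.4 and 636.3 (11.1-fold), the proliferation marker MKI67 at 87.3 and 666.4 (7.63-fold) and the kinase PLK1 at 41.3 and 310.1 (7.51-fold). CCNB2, a B cyclin, read 282.1 and 1017, and the brightest mitotic gene, the ubiquitin-conjugating enzyme UBE2C, 409.6 and 1622 (3.96-fold). In S phase the thymidine kinase TK1 lay at 110.1 and 998.9 (9.07-fold), the ribonucleotide reductase subunit RRM2 at 367.9 and 2826 (7.68-fold) and the replication helicase subunit MCM5 at 130.2 and 568.9 (4.37-fold). E2F1 read 44.5 and 117.9.

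Targets of p53 lay mostly the other way. CDKN1A, the CDK inhibitor p21 and a p53 target, read 2157 and 831.7 (2.59-fold lower), and MDM2, the ligase that limits p53, 962 and 212.9 (4.52-fold). GADD45A lay at 1965 and 566.9 (3.47-fold lower) and the repair gene XPC at 475.7 and 122.6 (3.88-fold). Of 22 p53 targets 9 were lower and 2 higher, and 20 lay below 0. The exceptions were TP53I3, a quinone reductase, at 43.3 and 157.6 (3.64-fold higher), and the kinase PLK3. CDKN2D, an inhibitor of CDK4 and CDK6, read 20.1 and 126.8 (6.31-fold higher), and CCND3, unlike CCND1, 107.1 and 334.3 (3.12-fold higher). Of 13 D cyclin and CDK inhibitor genes 3 were higher and 2 lower.

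The signals of the histone list did not lie on the side of the S phase list. Whether they follow the histone transcripts made in S phase was not tested. Of 12 compared 7 were lower and 1 higher, with a median of -1.11. H2BC12 read 1067 and 460.5 (2.32-fold lower), H2AC6 361.5 and 92.0 (3.93-fold) and H2BC21 189.1 and 66.6 (2.84-fold). H2AX, a variant with a role at DNA breaks, lay at 131.7 and 720.5 (5.47-fold higher).

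**Figure D3:**
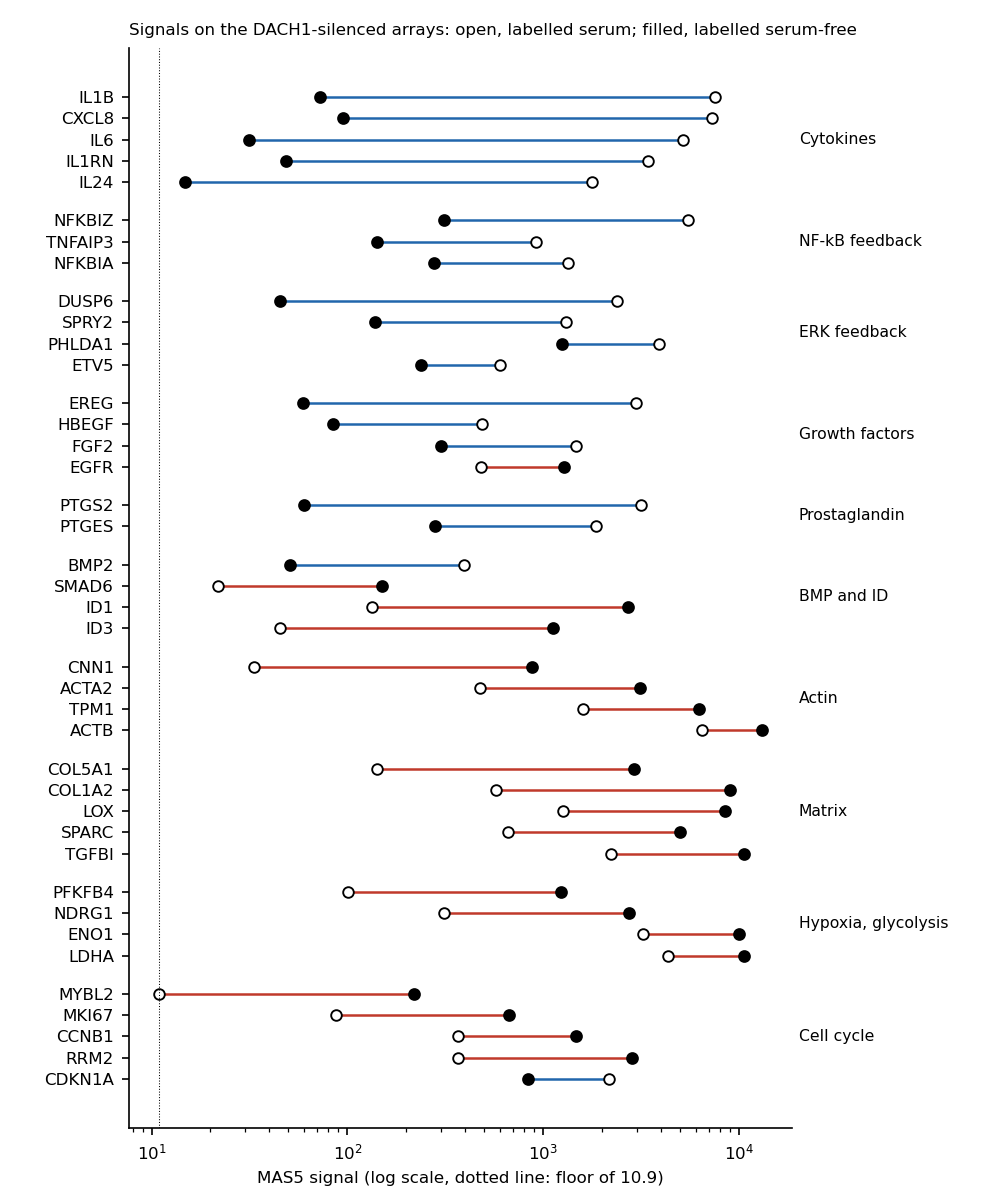
MAS5 signals (log scale, floored at 10.9, dotted line) of named genes on the 2 DACH1-silenced arrays: open points are labelled serum and filled points labelled serum-free, joined by a blue line where the serum-free signal is lower and a red one where it is higher. Cytokine and feedback genes run towards low signals labelled serum-free, and ID, actin, matrix and glycolysis genes the other way; EGFR (481.1 and 1281), BMP2 (395.2 and 50.7) and CDKN1A (2157 and 831.7) run against the rest of their groups.

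Hypoxia genes and glycolysis were higher together. Of 24 hypoxia genes 17 were at least 2-fold higher and 1 lower, with a median of 1.78. PFKFB4, which sets the level of a glycolytic activator, read 100.6 and 1235 (12.3-fold higher), and HILPDA, a lipid droplet protein, 128.5 and 1341 (10.4-fold). The glucose transporter SLC2A1 lay at 91.1 and 767.6 (8.43-fold) and the mitophagy receptor BNIP3 at 1482 and 5627 (3.80-fold). RORA was the lower member, at 976.5 and 380.1 (2.57-fold). Some textbook hypoxia targets stayed within 2-fold: VEGFA read 3763 and 2830 and ADM 5324 and 4350.

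Of 18 glycolytic enzymes 14 were at least 2-fold higher and none lower, with a median of 1.29. ENO2, the neuronal enolase, gave 282 and 2271 (8.05-fold higher), ALDOC 152.3 and 773.4 (5.08-fold) and the brightest, LDHA, 4332 and 10535 (2.43-fold). PGK1 lay at 3707 and 8872 (2.39-fold). Both LDHA and PGK1 came to under 2-fold with quantile normalization, at log2 differences of 0.93 and 0.88. The respiratory chain gave no such shift, with 1 of 25 genes higher, 1 lower and a median of -0.026. The 17 ribosomal protein genes, all bright, held none past 2-fold in either direction and had a median of -0.030.

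Of 23 genes of endoplasmic reticulum chaperones and the unfolded protein response, 7 were higher, 2 lower and 14 within 2-fold. PDIA6, a disulfide isomerase, read 884.8 and 2756 (3.12-fold higher), HSP90B1 1585 and 3880 (2.45-fold) and CRELD2 311.2 and 1205 (3.87-fold). CREB3L1, a transcription factor of collagen-secreting cells, lay at 140.4 and 1356 (9.66-fold higher). ERN1, the sensor IRE1, lay at 540.1 and 41.9 (12.9-fold lower), and the co-chaperone gene DNAJB9 at 910.8 and 434.5 (2.10-fold lower).

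ATF4 targets of the amino acid response were split by gene. The pseudokinase TRIB3 read 835.7 and 94.6 (8.83-fold lower), the stress cytokine GDF15 852.3 and 41.0 (20.8-fold) and DDIT3, the factor CHOP, 1359 and 231 (5.88-fold). ASNS, asparagine synthetase, lay at 1665 and 469.2 (3.55-fold lower). Its promoter stretch is shown because it holds the ATF4 composite letters TGATGNAA 68 bases before the start.
ASNS, chr7:97872409-97872528, minus strand: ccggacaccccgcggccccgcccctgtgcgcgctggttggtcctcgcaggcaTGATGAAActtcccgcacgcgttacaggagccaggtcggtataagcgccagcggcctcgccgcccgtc
These letters were held by 7 of 29 promoters of the list and by 3.67% of all, on both strands. Of the holders, ASNS and SLC3A2 were past 2-fold lower, at log2 differences of -1.83 and -1.16. CHAC1, CARS1, AARS1 and SLC7A1 lay within 2-fold, from -0.59 in AARS1 to 0.65 in SLC7A1, and FGF21 was not compared. On the other side, the cystine transporter SLC7A11 read 70.4 and 376.9 (5.35-fold higher) and the secreted glycoprotein STC2 472.6 and 3195 (6.76-fold). Of 33 members 8 were lower and 3 higher, with a median of -0.32.

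Lipid synthesis lay higher in fatty acids than in sterols. SCD, the desaturase, read 1128 and 4753 (4.21-fold higher), SCD5 276.8 and 737.4 (2.66-fold) and FASN, fatty acid synthase, 87.6 and 176.7 (2.02-fold). Of 11 fatty acid genes 5 were higher and none lower. Of 17 genes of cholesterol synthesis 3 were higher and 1 lower, beside 15.3% and 12.2% of all genes, with LSS, lanosterol synthase, at 340.7 and 777 (2.28-fold higher). The difference between the 2 lists was not tested. INSIG1, the sterol-sensing retention protein of the sterol uptake list, read 3979 and 2627. Lower were NPC1, the lysosomal cholesterol exporter, at 2564 and 799.3 (3.21-fold), and CH25H, cholesterol 25-hydroxylase, at 254 and 44.8 (5.67-fold).

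HMOX1, heme oxygenase, read 182.4 and 2357 (12.9-fold higher), and NQO1, a quinone reductase also driven by NRF2, 338 and 1407 (4.16-fold). GCLC, a subunit of the enzyme that starts glutathione synthesis, lay at 1412 and 374.8 (3.77-fold lower). The list of 16 NRF2 targets held 3 higher and 1 lower. Over all genes the shares were 15.3% and 12.2%, so nothing particular to the list is read from that count. In the IGF axis IGFBP3, the main IGF carrier, gave 807.7 and 10258 (12.7-fold higher), and STC1, which inhibits the protease PAPPA, 5488 and 1657 (3.31-fold lower). That list of 14 held 4 higher and 3 lower. APLN, the apelin ligand of vessel growth, lay at 14.1 and 157.7 (11.2-fold higher), and the semaphorin and VEGF receptor NRP2 at 1741 and 381.8 (4.56-fold lower). In their list of 15 PDGF and VEGF genes 6 were higher and 2 lower, and its median changed sign with the filter and the probe sets.

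Other genes at the ends of the comparison belonged to none of these groups. CPA4, a carboxypeptidase gene, had the highest measured difference at 22.5 and 1161 (51.6-fold). The imprinted gene MEST read 21.5 and 971.3 (45.2-fold higher), and TNFRSF9, the costimulatory receptor 4-1BB, 12.7 and 447.1 (35.2-fold). The atypical kinase ALPK2, OLFML3, TCF19, FLG, TMEM255A and WFDC21P lay between 19.6-fold and 30.8-fold higher. At the floor labelled serum and at 100 or more labelled serum-free were CAPS, NR2F2-AS1, C5orf46 and DLX5, at least 11.2-fold to 13.1-fold higher. On the lower end, TCIM and LSAMP were at the floor labelled serum-free, at least 121-fold and 55.3-fold lower. The long noncoding RNA LINC00944 read 634.2 and 15.9 (39.9-fold lower), and the serpin SERPINB3 394.7 and 11.4 (34.6-fold).

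The markers of cell types were read to check the labelled glioblastoma origin. Of the glioma markers, vimentin (VIM) read 6065 and 9278 and CD44 4955 and 4431, while nestin (NES) lay near the floor at 19.6 and 26.7. All 5 mesenchymal markers had a signal of 100 or more on an array, with sums of 15336 and 23374. The astrocyte marker GFAP was below the floor on both arrays, and 3 of 6 astrocyte markers were. Their sums were 170.3 and 213.1. The neural stem marker SOX2 was below the floor on both, and the sums of 5 such markers were 106.8 and 57.5, none at 100 or more. No oligodendrocyte, endothelial, microglial or blood marker reached 100 either, with sums from 54.3 to 119.9. GFAP and SOX2 were read as markers and not for their values.

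Neuronal markers were higher in sum, 1518 and 6044, mostly from TUBB3 (1279 and 5514, 4.31-fold), a tubulin that dividing tumour cells also express. SNAP25, a vesicle fusion protein, read 160.2 and 370.3 (2.31-fold higher), and GAP43 was below the floor labelled serum and at 47.0 labelled serum-free, at least 4.31-fold. DCX, STMN2 and RBFOX3 were below the floor on both arrays. Among stem cell factors OLIG2 read 58.4 and 12.2 (4.79-fold lower), and SOX4 100.1 and below the floor, at least 9.18-fold lower. The mesenchymal factor PRRX1 lay at 1759 and 175.1 (10.0-fold lower) and N-cadherin, CDH2, at 242.2 and 750.3 (3.10-fold higher). In the longer gene lists, 4 of 9 neuronal genes were higher and none lower, 2 of 11 astrocyte genes higher and none lower, and 1 of 8 oligodendrocyte genes on each side. Of 13 stem and progenitor genes 1 was higher and 3 lower, of 12 mesenchymal and cadherin genes 3 and 2, and of 5 genes of other cell types 2 were higher and none lower.

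The same comparison in DACH1-induced cells used the other 2 arrays, so the pairs share no array. Of 12371 genes compared there, 1732 (14.0%) were at least 2-fold higher and 1255 (10.1%) lower. In the 11903 genes compared in both pairs, 1121 were higher in both, which is 61.8% of the higher genes of the silenced pair and 66.6% of those of the induced pair. Lower in both were 831, or 55.5% and 68.3%. In opposite directions past 2-fold were 18 genes higher and 11 lower in silenced cells. With 1 array per condition, no test of a difference between the pairs is possible, and what follows is values.

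CXCL8 and MMP1 differed alike in both, 76.2-fold and 76.1-fold, and 63.8-fold and 64.0-fold. The next genes had a far larger difference in silenced cells. IL6 read 5184 and 31.6 silenced and 124.5 and 19.6 induced, so the pairs parted labelled serum, where the silenced signal was the highest of the 4. PTGS2 read 94.3 and 57.8 induced, within 2-fold. CXCL1 (15 and below the floor) and CXCL5 (22.1 and below the floor) were dim on both induced arrays, as was FGF7 (18 and below the floor). In the prostaglandin list, where 4 of 10 were lower in silenced cells, none of 7 was in induced cells. Higher in silenced cells by a wider margin were HMOX1 (1498 and 2841 induced, 1.90-fold) and MEST (204.4 and 1391, 6.81-fold). Glycolytic enzymes had 14 of 18 higher in silenced and 6 of 18 in induced cells, with medians of 1.29 and 0.70.

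BMP2 and PTPN22, a tyrosine phosphatase, were lower in both pairs but less so in silenced cells. BMP2 was 7.79-fold lower silenced and 37.8-fold induced, and PTPN22 2.38-fold (106.6 and 44.7) and 13.2-fold (513.3 and 38.9). TGFA, an EGF receptor ligand, read 109.5 and 185.7 silenced and 725.8 and 142.2 induced. In these 3 genes it was again the signal labelled serum that differed most between the pairs.

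**Figure D4:**
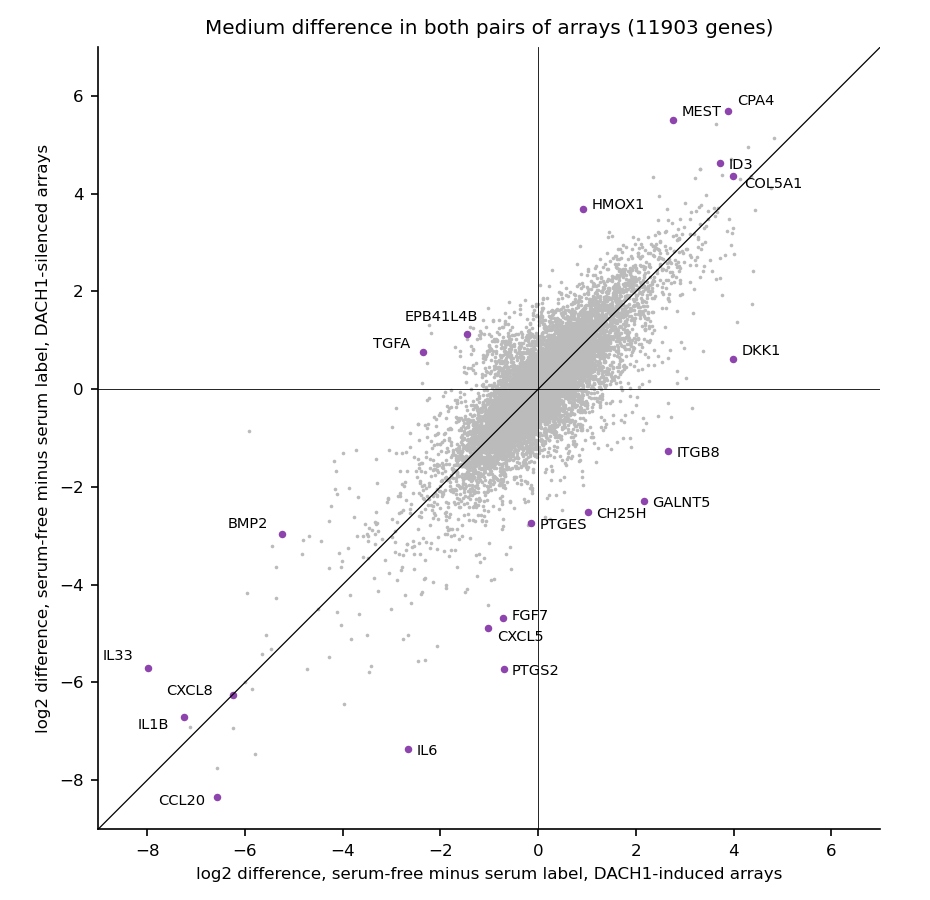
Log2 differences, labelled serum-free minus labelled serum, of 11903 genes in the DACH1-induced pair (x axis) and the DACH1-silenced pair (y axis), 1 point per gene with equal differences on the diagonal. CXCL8 lies on the diagonal, PTGS2 and IL6 lie far below it and HMOX1 and MEST above it; ITGB8 and GALNT5 lie below 0 in silenced and above 0 in induced cells.

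The only fit of the design with an error was limma over all 4 arrays, with medium and DACH1 state as terms and 1 residual degree of freedom per gene. Of 12103 genes it called 1862 (15.4%) higher and 1534 (12.7%) lower labelled serum-free at an adjusted p of 0.05. With no floor it called 1159 and 854, and with no filter on low signals 0 and 0, with 4531 genes at an unadjusted p under 0.05. That error combines how far the gene's medium difference varies with DACH1 state with a prior variance estimated over all genes. A gene whose difference depends on DACH1 state thus has a large error. Where the 2 pairs nearly agree the error comes mostly from the prior, as in CXCL8 and MMP1, each with an SE of 0.177. For IL24 the log2 difference was -7.02 (SE 0.19, limma adjusted p 0.0157, lower in 2 of 2 pairs). For IL6 it was -5.01 (SE 1.2, limma adjusted p 0.0506), which did not pass, nor did PTGS2 at -3.21 (SE 1.28, limma adjusted p 0.134). FOXM1, LOX, DUSP6, EGR1 and SLC2A1 passed. All but 1 of the 40 mitotic genes, 25 of 35 S phase genes and 15 of 16 collagen folding genes were called higher, and none lower. In the ERK feedback list 13 of 19 were called lower and none higher, and in the NF-kB list 11 of 17. Of 12 YAP and TEAD targets only 2 were called higher and 2 lower.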

How the data were processed

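Total RNA of 4 cultures, extracted with Trizol, was labelled from 6 µg for 4 Affymetrix arrays, per the labels' protocols. The authors deposited 1 linear intensity for every probe set. The submitters' processing notes name MAS5; its version and target intensity are not stated in what was used here. The means after trimming 2% at each end lie between 99.63 and 99.65, so each array has 1 scaling factor. Median signals were 16.5 and 19.3 on the silenced arrays labelled serum and serum-free, and 15.7 and 17.1 on the induced ones. Depth does not apply to arrays; their number limits the precision.

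GEO's platform annotation named the probe sets: 41091 had 1 gene, 1801 several and 11721 none listed, with 99.9% of the symbols updated through RefSeq. Signals were floored and then put on the log2 scale. The limma fit (lmFit and eBayes, Benjamini-Hochberg) used genes with 2 of 4 arrays at or above the median signal and was tested on simulated data. The labels name no repeat cultures, so the p-values reflect only how these arrays vary, which may be technical.

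The comparison and the 57 gene lists, which hold 1099 different genes, 85 of them not named here, were chosen with earlier results of these data known. Genes named were DACH1, the 15 highest and 15 lowest measured differences and 5 bounds per direction with a signal of 100 or more, up to 6 members per direction and the brightest of each list, 8 genes per direction furthest from the induced pair, and genes of the medium's proteins and their receptors. Exceptions are said to be so, and lists without a count in the report are given in the closing section. The alternatives were other scaling (quantile normalization, centring on the median), no floor, a pseudocount, other filters, other probe set rules, other folds and a trend in the variance prior. Promoters were matched to genes by symbol. The fit ran in limma 3.58.1 under R 4.3.3, tables in pandas 2.3.3 and numpy 2.4.6 under Python 3.11.15, and plots in matplotlib 3.10.9.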

Additional observations from a re-analysis of the deposited data

Results flagged for a closer look

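In 6 genes with a signal of 100 or more in both pairs, the medium difference was past 2-fold in opposite directions in DACH1-silenced and DACH1-induced cells. Each was read from the brightest probe set of its gene. With 1 array per condition the difference between the pairs was not tested. Log2 differences are labelled serum-free minus labelled serum. GALNT5, a mucin-type glycosyltransferase gene, differed by -2.29 in silenced cells (1202 and 245.7) and 2.17 in induced cells (55.3 and 248.8). ITGB8, the chain of an integrin that activates TGF-beta, differed by -1.26 in silenced (554.3 and 232.2) and 2.66 in induced cells (24.9 and 157.8). GLIS3, a zinc finger transcription factor gene, differed by -1.20 (735.8 and 319.7) and 1.22 (132.6 and 309.7), and PDZRN3 by -1.15 (350.3 and 157.9) and 1.41 (68.8 and 182.3). The other way lay EPB41L4B, at 1.13 in silenced (187.4 and 409.8) and -1.46 in induced cells (813.4 and 296.6), and TBC1D2, at 1.10 (142.3 and 304) and -1.44 (889.6 and 327.5). In all 6 genes the 2 arrays labelled serum-free lay closer together than the 2 labelled serum. Dimmer probe sets did not always follow. ITGB8 differed by -0.47 in silenced cells with the mean of all its probe sets, and the other GLIS3 probe set by -0.61. A dim EPB41L4B probe set was higher in both pairs (17 and 24.7 silenced, 20.9 and 31.1 induced). All 5 GALNT5 probe sets were lower in silenced cells.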

How the results depend on the processing

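No paired analysis was possible because no condition was replicated, beyond the limma fit itself, which compares the media within each DACH1 state. Leaving out an array leaves limma no residual degree of freedom, so such a fit gives values with no test. Up to 9 alternatives were read for each of 587 named genes, as some genes had no value under some of them. ACTB, LDHA and LAMA4, for example, had none without probe sets ending in _x_at or _s_at. Of the 350 past 2-fold, 3 reversed and 95 came within 2-fold under at least 1 alternative. IL1A turned to 1.12 and MYL9 to -0.73 without probe sets ending in _x_at or _s_at, and LAMA4 to 0.078 with the mean of all probe sets. Without those probe sets the list medians of the PDGF and VEGF families turned from 0.66 to -0.85, of the insulin and FOXO genes from -0.36 to 0.079 and of the oligodendrocyte markers from 0.30 to -0.13. The PDGF and VEGF median was also -0.37 with every array above the median signal and -0.41 with a floor of 50 and an array at 100, and the oligodendrocyte median was -0.39 with quantile normalization. Of the other list medians, those close to 0 in the report's setting also changed sign under some alternatives.

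With a floor of 50 and an array at 100 fewer genes were compared: 1155 were at least 2-fold higher in silenced and 1075 in induced cells, 13 lists against 7 had a median of at least 1, and 10 against 6 a median of at most -1. With no filter 2 lists had a median of at most -1. At 1.5-fold 3748 genes were higher and 3124 lower, and at 4-fold 406 and 332. With quantile normalization 1769 were higher and 1671 lower, and the median over all genes was -0.0061, against 0.062. With no floor limma called 1159 higher and 854 lower; with no filter it called 0 higher and 0 lower at an adjusted p of 0.05, with 4531 genes at an unadjusted p under 0.05 and no other tool run. The cause of these differences was not tested. Signals near the floor limit all genes that are dim on 1 array.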

Other observations

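A few gene groups lie outside the account above, and each is given as values of the silenced pair, labelled serum then labelled serum-free. Lysosome and autophagy genes held 5 higher and 3 lower of 21, with a median log2 difference of 0.71. Cathepsin A, CTSA, read 1314 and 4252 (3.24-fold higher) and the lysosomal calcium channel gene MCOLN1 52.3 and 190.8 (3.65-fold). ATP6V0D2, a subunit of the proton pump, lay at 308.3 and 24.5 (12.6-fold lower) and WIPI1, an early autophagy gene, at 1325 and 461.4 (2.87-fold lower). Sterol export and LXR targets held 4 lower and none higher of 11, among them LPCAT3 at 111.1 and 36.7 (3.03-fold lower). In the plasminogen system and serpins 3 of 13 were higher and 3 lower, with the activator gene PLAT at 51.5 and 214.7 (4.17-fold higher).

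Of 13 iron handling genes 1 was higher and 3 lower, beside 15.3% and 12.2% of all genes. SLC11A2, an iron importer gene, read 1242 and 265.7 (4.67-fold lower), and the ferrireductase gene STEAP2 285.1 and 84.6 (3.37-fold lower). Metallothioneins and zinc transport held 2 higher and 1 lower of 11, with the zinc-sensing factor MTF1 at 311.3 and 120.6 (2.58-fold lower). The lipid droplet and PPAR list held 4 higher and none lower of 9, and the sterol uptake list 1 on each side of 7. The partners of DACH1 in the Dachshund network differed too: EYA4 read 252.5 and 62.6 (4.03-fold lower) and SIX4 181.4 and 63.2 (2.87-fold lower), while EYA1 read 29.9 and 85.9 (2.87-fold higher) but differed by 0.060 on the log2 scale without probe sets ending in _x_at or _s_at. Of 14 housekeeping genes 12 lay within 2-fold and 2 were higher, with a median of 0.37.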
